A study of Mus musculus with 13 samples.

Results

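Trimethylation of lysine 4 of histone H3 (H3K4me3) marks the start sites of active genes and of genes that are ready to be transcribed, and at most genes it spreads over a short stretch around the transcription start site (TSS). At genes that define a cell type the mark often runs far into the gene, so a wide domain is commonly read as a sign of cell identity. Trimethylation of lysine 27 (H3K27me3) is laid down by the Polycomb repressive complex and marks silenced developmental genes, and OLIG2 is a basic helix-loop-helix transcription factor that oligodendrocyte precursor cells need and that binds the DNA motif called the E-box.

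The regions described here were the H3K4me3 peaks of OPCs (oligodendrocyte precursor cells) that were 2000 bp wide or more and overlapped no H3K4me3 peak of 2000 bp or more in NSCs (neural stem cells). Of 18284 listed H3K4me3 peaks in OPCs, 2726 reached 2000 bp, and 206 of these met the rule. They are called the gained wide regions below, and the remaining 2520 wide OPC peaks, each of which overlapped a wide NSC peak, serve as the comparison. The regions were thus selected on their H3K4me3 widths in OPCs and NSCs, and these widths are given as a description only.

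The study followed the oligodendrocyte lineage in mice through 3 cell types by ChIP-Seq, and 8 of its 13 samples were used. NSCs were bought and grown in culture with EGF and FGF, and came from the cortex of E14.5 embryos of CD-1 mice according to the methods, although the labels give the strain as C57BL/6. OPCs and NFOs (newly formed oligodendrocytes) were isolated at postnatal day 7 from C57BL/6 brains, without culture or treatment, by panning on antibodies to PDGFRα and then to GalC after microglia and endothelial cells had been depleted. The labels name no transgene or knockout for these libraries, and each list comes from 1 library. The antibody label of each histone library names the other histone mark than its title, and the titles were used here. Peak names show single-end reads for NSCs and paired-end reads for OPCs and NFOs, so widths in NSCs and in the other cell types are not on one scale. With 1 library per condition no test between cell types was possible, the depth is unknown, and the intervals given with shares are exact binomial (Clopper-Pearson) 95% intervals that cover counting error only.

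Wide peaks were unequally common in the lists. NSCs had 7262 H3K4me3 peaks of 2000 bp or more among 33292, whereas NFOs had 311 among 21736. In the wide OPC peaks, gained or not, the TSS of 1 of 20 microglia genes and 1 of 20 endothelial and pericyte genes was found. The latter was Cspg4, which is also an OPC gene. Of 20 astrocyte genes, 1 had a TSS in a gained wide region and 5 in other wide OPC peaks. For 24 neuron genes the counts were 2 and 3. Over all 21924 protein-coding genes they were 182 (0.830%) and 2775 (12.7%).

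To show the DNA under the strongest OLIG2 binding in the gained wide regions, the 4 OPC OLIG2 peaks with the highest fold enrichment that overlapped no annotated exon are printed from mm10, on the plus strand. Capitals mark the E-box CANNTG, which reads the same on both strands. The Gpr37l1 peak was also listed in NFOs.
Ralyl, upstream of the TSS in an intron of Gm2464, chr3:13471121-13471350: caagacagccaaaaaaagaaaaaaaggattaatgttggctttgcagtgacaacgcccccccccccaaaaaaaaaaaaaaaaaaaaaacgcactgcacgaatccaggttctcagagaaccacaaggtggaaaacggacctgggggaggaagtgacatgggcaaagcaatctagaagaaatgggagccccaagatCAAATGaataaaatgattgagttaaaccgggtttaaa
Nhsl1, intron, chr10:18461559-18461788: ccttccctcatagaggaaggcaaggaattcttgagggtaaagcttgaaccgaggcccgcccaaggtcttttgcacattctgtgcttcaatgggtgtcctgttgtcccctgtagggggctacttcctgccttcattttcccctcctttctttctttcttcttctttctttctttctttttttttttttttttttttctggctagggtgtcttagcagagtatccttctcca
Ctnnd2, intron, chr15:30648069-30648298: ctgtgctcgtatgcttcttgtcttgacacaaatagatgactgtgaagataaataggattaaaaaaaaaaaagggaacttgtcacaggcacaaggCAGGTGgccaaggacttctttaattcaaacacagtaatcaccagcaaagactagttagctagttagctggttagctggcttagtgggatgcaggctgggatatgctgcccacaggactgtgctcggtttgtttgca
Gpr37l1, intron, chr1:135163727-135163956: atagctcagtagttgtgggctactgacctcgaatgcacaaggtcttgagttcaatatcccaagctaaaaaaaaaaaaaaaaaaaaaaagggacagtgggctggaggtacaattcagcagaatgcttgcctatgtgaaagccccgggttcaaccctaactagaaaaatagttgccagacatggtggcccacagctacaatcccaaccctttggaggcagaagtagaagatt
The Ralyl and Ctnnd2 peaks held 1 E-box each and the other two held none. The Ralyl, Nhsl1 and Gpr37l1 peaks each contained a run of A or T, of 22, 21 and 23 bases.

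To show how far the regions differed in CpG content, which sets the main classes of mammalian promoters, 200 bases directly upstream of the TSS are printed for the 2 regions with the lowest and the 2 with the highest ratio of observed to expected CpG, taken over the whole region, of 38 in which this stretch lay inside the region and overlapped no exon. They are written in the direction of transcription from mm10, with each CG in capitals.
Gpr37l1, chr1:135167682-135167881, minus strand: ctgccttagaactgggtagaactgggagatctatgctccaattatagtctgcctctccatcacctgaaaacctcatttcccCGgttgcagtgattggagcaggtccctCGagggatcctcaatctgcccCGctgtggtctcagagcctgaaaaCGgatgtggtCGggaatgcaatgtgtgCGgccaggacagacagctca
Arhgap24, chr5:102844807-102845006, plus strand: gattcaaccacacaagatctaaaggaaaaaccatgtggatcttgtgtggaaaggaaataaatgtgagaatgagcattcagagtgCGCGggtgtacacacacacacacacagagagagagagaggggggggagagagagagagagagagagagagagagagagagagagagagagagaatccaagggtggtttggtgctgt
Pcdh8, chr14:79771313-79771512, minus strand: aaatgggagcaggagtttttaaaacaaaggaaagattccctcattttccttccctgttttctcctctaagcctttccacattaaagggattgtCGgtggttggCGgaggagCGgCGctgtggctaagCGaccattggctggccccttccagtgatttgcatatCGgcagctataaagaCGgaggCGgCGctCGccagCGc
Hecw2, chr1:54195169-54195368, minus strand: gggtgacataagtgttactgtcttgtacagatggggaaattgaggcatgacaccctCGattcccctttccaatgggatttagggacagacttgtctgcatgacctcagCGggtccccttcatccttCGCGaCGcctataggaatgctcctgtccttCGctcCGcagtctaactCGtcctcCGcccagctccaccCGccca
These stretches held 6, 2, 11 and 10 CG dinucleotides, against a median of 11 over the 38 regions. In the same stretch of 32851 RefSeq promoters of GRCm38 the median was 5, with quartiles of 2 and 13. The ratio over the whole region ranged from 0.15 at Gpr37l1 to 0.94 at Hecw2.

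The widest gained region belonged to Gpr17, a G protein-coupled receptor of precursors committed to differentiation. It covered 7223 bp (chr18:31942404-31949626), started 10 bp downstream of the annotated TSS, and overlapped no NSC H3K4me3 peak of any width. Sox10, a transcription factor of the whole oligodendrocyte lineage, had 6336 bp in OPCs (chr15:79158008-79164343), starting 131 bp downstream of its TSS, against a single NSC peak of 201 bp inside it. Both domains therefore lay wholly on the transcribed side of the TSS. Lrrtm3, a leucine-rich repeat protein of synaptic adhesion, had 6617 bp (chr10:64084283-64090899) against a widest NSC peak of 1072 bp. Next came Kcna3, a voltage-gated potassium channel (5895 bp in OPCs and 1706 bp in NSCs), Sntg1, a syntrophin (5894 bp and no NSC peak), and Rnf43, a ubiquitin ligase that removes Wnt receptors (4973 and 1339 bp). Gpr37l1, an orphan receptor of glia, had 4892 bp and no NSC peak. The list of the 10 widest closed with Brinp1 (4685 and 1209 bp), the synaptic adhesion gene Slitrk3 (4669 and 1576 bp) and C1ql3, which encodes a secreted complement-like protein (4574 and 1964 bp).

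**Figure D1:**
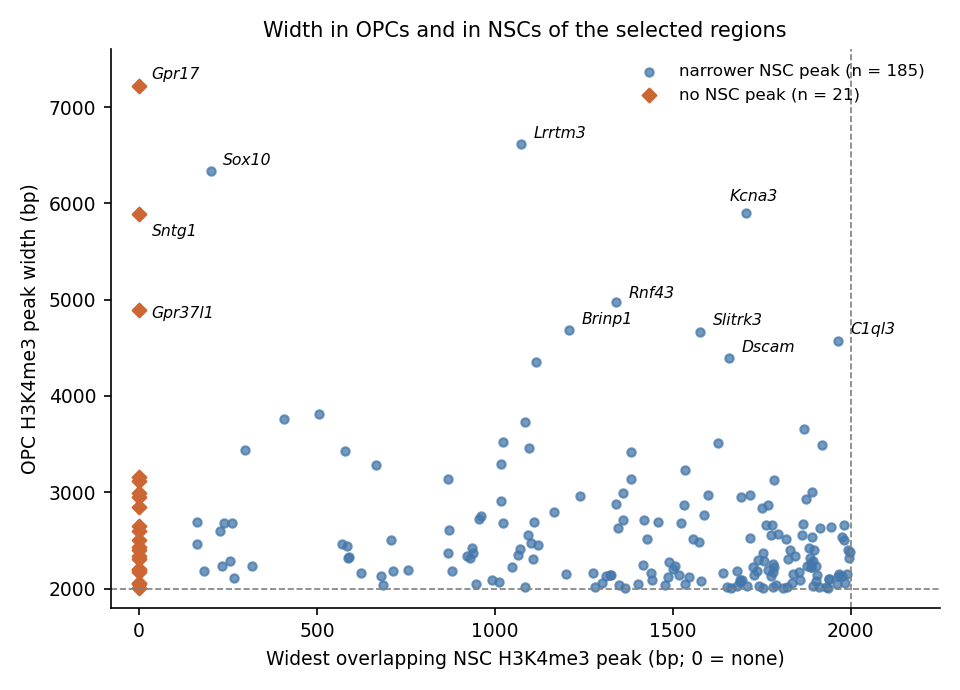
Each point is 1 of the 206 gained wide regions, with the width of the widest overlapping NSC H3K4me3 peak on the x axis and the OPC peak width on the y axis, both in bp, and dashed lines at the 2000 bp thresholds that chose the regions. Blue circles are the 185 regions with a narrower NSC peak, many of which crowd against the NSC threshold, and orange diamonds at 0 are the 21 regions without one, which include the widest, Gpr17, at 7223 bp.

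The gained wide regions were 2001 to 7223 bp wide with a median of 2342 bp, against a median of 2533 bp for the other wide OPC peaks. Of the 206, 32 were 3000 bp or wider. Their fold enrichment over the control, as given by the authors' peak caller, was 3.76 to 17.5 with a median of 6.22, against a median of 7.11 for the other wide peaks. The highest values were at Fbxo21, a subunit of a ubiquitin ligase (17.5), Lrrtm4 (16.8), the transcription factor gene Pou2f2 (15.8), the presynaptic adhesion gene Nrxn3 (12.5) and the Notch effector gene Hey2 (11.5). None of these 5 was among the 10 widest. Just inside the width threshold lay Cnrip1 (2001 bp), Sdcbp (2005 bp) and Smarca1 (2005 bp), and just outside it lay peaks at or near Gm34283 (1999 bp), Ksr2 (1993 bp) and Rai1 (1993 bp) that also overlapped no wide NSC peak.

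Most of the regions carried H3K4me3 in NSCs already, over a shorter stretch. An NSC peak of some width overlapped 185 of the 206, and 21 (10.2%, 95% interval 6.42 to 15.2%) overlapped none. In the 185, the widest NSC peak had a median of 1546 bp, and it measured 1000 bp or more in 147 and less than 1000 bp in 38. NSC peaks covered a median of 57.2% of the region, and in 33 regions the NSC mark was called in 2 or more pieces. The fold enrichment of the widest NSC peak had a median of 6.39 in the 185, against 6.24 for their OPC peak. These values come from libraries of unknown depth. In these 185 regions gained thus refers to the called width, not to a higher fold enrichment. In 99 regions the widest NSC peak was 1500 bp or more, close to the threshold. Arhgap33 (1997 bp), the region near Gm16863 (1995 bp) and Vps53 (1992 bp) lay just under it, while the wide OPC peaks at Itpr2, Mark1 and P2ry1 were left out with NSC peaks of 2007, 2010 and 2020 bp.

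The number of regions depended on the NSC threshold. It was 59 when an NSC peak of 1000 bp or more removed a region and 1090 when the NSC threshold was raised to 3028 bp, the width that as many NSC peaks reach as OPC peaks reach 2000 bp. The last was chosen after seeing the data.

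The 21 regions without any NSC H3K4me3 peak were 2506 bp wide at the median, with the 5 widest at Gpr17, Sntg1, Gpr37l1, Asic2 and Slitrk4. Asic2, an acid-sensing ion channel gene, had an OPC peak of 3159 bp and Slitrk4 one of 3119 bp. A further one, of 2992 bp, lay over a TSS of the long noncoding RNA Sox2ot. Their median ratio of observed to expected CpG was 0.33, against 0.55 in the 185 regions with an NSC peak. Every one of the 21 overlapped an H3K4me3 peak in NFOs (exact binomial interval 83.9 to 100%). That interval holds the shares of all 206 gained wide regions (85.0%) and of all wide OPC peaks (89.7%), so no difference from either is shown.

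The regions lay at start sites somewhat less often than other wide OPC peaks did. An annotated TSS was inside 184 of the 206 (89.3%, 95% interval 84.3 to 93.2%), against 96.4% (95.6 to 97.1%) of the other wide peaks and 95.9% of all wide OPC peaks. Of these 184 regions, 177 held the TSS of a protein-coding gene and 7 that of a long noncoding RNA alone. A further 14 had a TSS within 1000 bp, among them Gpr17, Sox10, C1ql1 and Tmem100, and 8 had none. The widest of the 8, of 4355 bp, lay in an intron of Nhsl1, 7314 bp from its nearest TSS (chr10:18458220-18462574).

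To see on which side of the TSS the OPC peak was longer, the 169 regions with the TSS of exactly 1 protein-coding gene inside were measured from the most upstream TSS in the region. They reached a median of 410 bp upstream and 1963 bp downstream. The 1951 other wide OPC peaks with 1 protein-coding gene reached 653 and 1921 bp. A longer downstream reach was thus not particular to the gained wide regions. In 131 of them an NSC peak lay over the same TSS. The rule fixes that the OPC peak was the wider, and the measurement limits how much of this can lie upstream. The OPC peak reached further downstream than the NSC peak in 125 of the 131 and further upstream in 52. The larger gain was downstream in 117 and upstream in 14. A gain upstream cannot exceed the OPC reach there, whose median was 395 bp in these 131, against 1954 bp downstream. The counts were thus partly set by the way the regions were measured, and the sides cannot be compared on equal terms. The median difference, OPC minus NSC, was 793 bp downstream and -35 bp upstream. At Lrrtm3 the mark reached 5994 bp downstream in OPCs and 379 bp in NSCs, while upstream it reached 622 and 692 bp. At Dscam, a cell adhesion gene, the downstream reach was 3830 bp in OPCs and 1185 bp in NSCs, and the upstream reach was 560 and 473 bp. The TSS that was measured was not always the first TSS of the gene. Because of the limit on the upstream side, no conclusion on the side of the extra width is drawn from these counts.

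**Figure D2:**
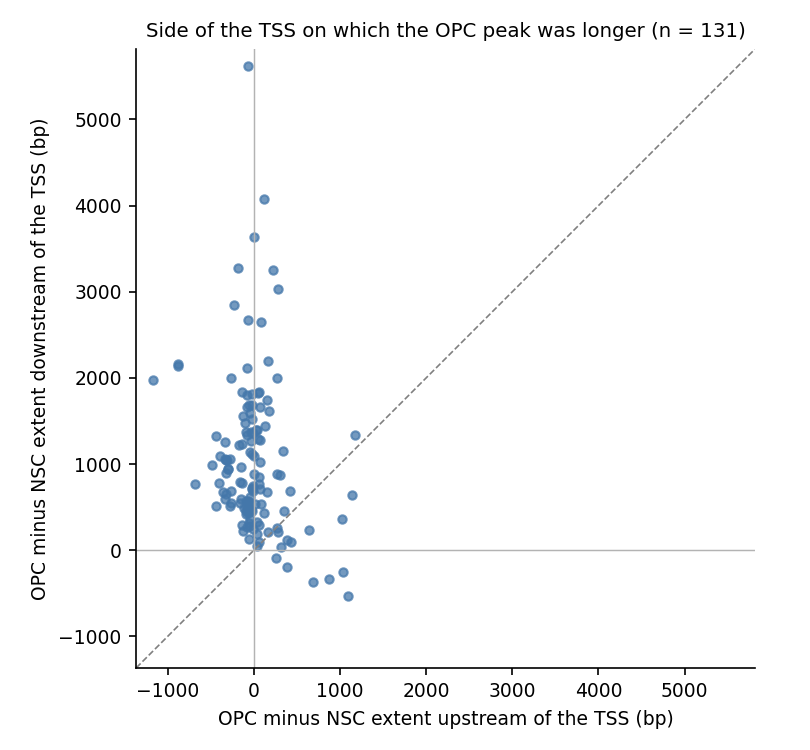
Each point is 1 of 131 gained wide regions with an NSC H3K4me3 peak over the same TSS, with the reach upstream of the TSS in OPCs minus that in NSCs on the x axis and the same difference downstream on the y axis, both in bp. Most points lie above the dashed line of equal gain and close to 0 on the x axis, with the larger gain downstream in 117 regions. The OPC reach upstream of the TSS limits the x values.

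The genes at these start sites were long. Their median span was 113992 bp (n = 169), against 54199 bp (n = 1951) for the other wide OPC peaks with 1 protein-coding gene. A span of 100 kb or more was found for 53.3% (45.4 to 61.0%) against 31.0% (28.9 to 33.1%), and these intervals did not overlap. The start site was also often an internal one. In 42 of the 169 (24.9%, 18.5 to 32.1%) every TSS in the region lay 1000 bp or more downstream of the first annotated TSS of the gene, against 12.8% (11.3 to 14.3%) of the 1951. The median distance to the first TSS was 68999 bp in these 42, and for 20 genes it was 100 kb or more. Examples were the receptor phosphatase gene Ptprd (1761981 bp), Pcdh15 (722525 bp) and the contactin gene Cntn1 (110192 bp). Both measures depend on gene length, and their parts were not separated.

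The sequence of the regions was poorer in CpG than that of the other wide OPC peaks. Median GC content was 52.9% against 55.3%, and the median ratio of observed to expected CpG was 0.53 against 0.71. The quartiles of that ratio were 0.41 and 0.64 in the gained wide regions and 0.61 and 0.80 in the others, so the middle parts of the distributions overlapped little.

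Of the 13 gene lists looked up, OPC genes had the highest share at gained wide regions. The lists were written with earlier results of these data known, so their shares are a description only and support no conclusion. A TSS of 8 of 34 OPC genes lay inside one, compared with 182 of 21924 protein-coding genes (0.830%). More of them, 15 of 34 (44.1%), had a TSS in the other wide OPC peaks, where the share over all protein-coding genes was 12.7%. The 8 were Dscam, Opcml, Pcdh15, Cspg4, Tnr, Luzp2, Cdo1 and Cspg5, and C1ql1, Tmem100 and Gpr17 had a TSS within 1000 bp of one. The OPC peak was 4391 bp at Dscam, 3420 bp at the adhesion gene Opcml and 3290 bp at the protocadherin gene Pcdh15, where the widest NSC peaks were 1659, 1381 and 1018 bp. Cspg4, which encodes the NG2 proteoglycan by which OPCs are recognised, shared a region of 3141 bp with a TSS of Odf3l1, and the NSC peak there was 1382 bp. The matrix gene Tnr (tenascin-R) had 2992 bp in OPCs and 1360 bp in NSCs, and Luzp2 had 2794 and 1167 bp. Cdo1, a cysteine dioxygenase, and Cspg5, a proteoglycan, were nearer the thresholds, with 2222 and 1888 bp and with 2183 and 1680 bp. All 8 thus had a narrower NSC peak. C1ql1 had 2753 and 961 bp, and Tmem100, a transmembrane protein gene, had 3424 and 578 bp.

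Fewer genes of later stages and of other cell types were found, although the shares of the myelin (2.86%), neuron (8.33%) and astrocyte (5%) lists were above the 0.830% of all protein-coding genes. Of 35 oligodendrocyte and myelin genes, Ugt8a was the 1 with a TSS inside, the gene of the enzyme that makes galactosylceramide, a myelin lipid. None of 20 lineage transcription factors had a TSS inside, although 13 had one in the other wide OPC peaks, and the Sox10 region lay 131 bp from its TSS. Among 24 neuron genes Elavl4 and Rbfox3, both RNA-binding proteins, had one (2863 and 2300 bp in OPCs, 1531 and 1739 bp in NSCs), and among 20 astrocyte genes the glutamate transporter Slc1a2 (2040 and 1791 bp). No TSS of the 24 NSC and radial glia genes, 20 microglia genes, 23 immediate early genes, 39 Hox genes, 39 other homeobox and patterning genes, 30 cholesterol and lipid genes or 46 growth factor and morphogen genes lay inside a gained wide region. In the NSC and radial glia list 14 of 24 had a TSS in another wide OPC peak.

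Some gene families, picked after the regions were seen, had several genes at gained wide regions. Of the 6 Slitrk genes, which encode synaptic adhesion proteins, Slitrk3, Slitrk4 and Slitrk6 were at gained wide regions and the other 3 at other wide OPC peaks. Of the 4 Lrrtm genes, Lrrtm3 and Lrrtm4 were gained and the other 2 were at other wide peaks. Potassium channel genes (symbols starting with Kcn) gave 5 of 93 in gained wide regions and 10 in other wide peaks, with Kcna3, Kcnc2, Kcnh8, Kcnk1 and Kcnq3 in the former. Over all protein-coding genes the counts were 182 and 2775 of 21924. Zinc finger genes (symbols starting with Zfp) gave 2 and 43 of 394, and the 39 Hox genes gave 0 in either set. Pde4d, Ralyl and Tenm2 each had 2 gained wide regions at different start sites.

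**Figure D3:**
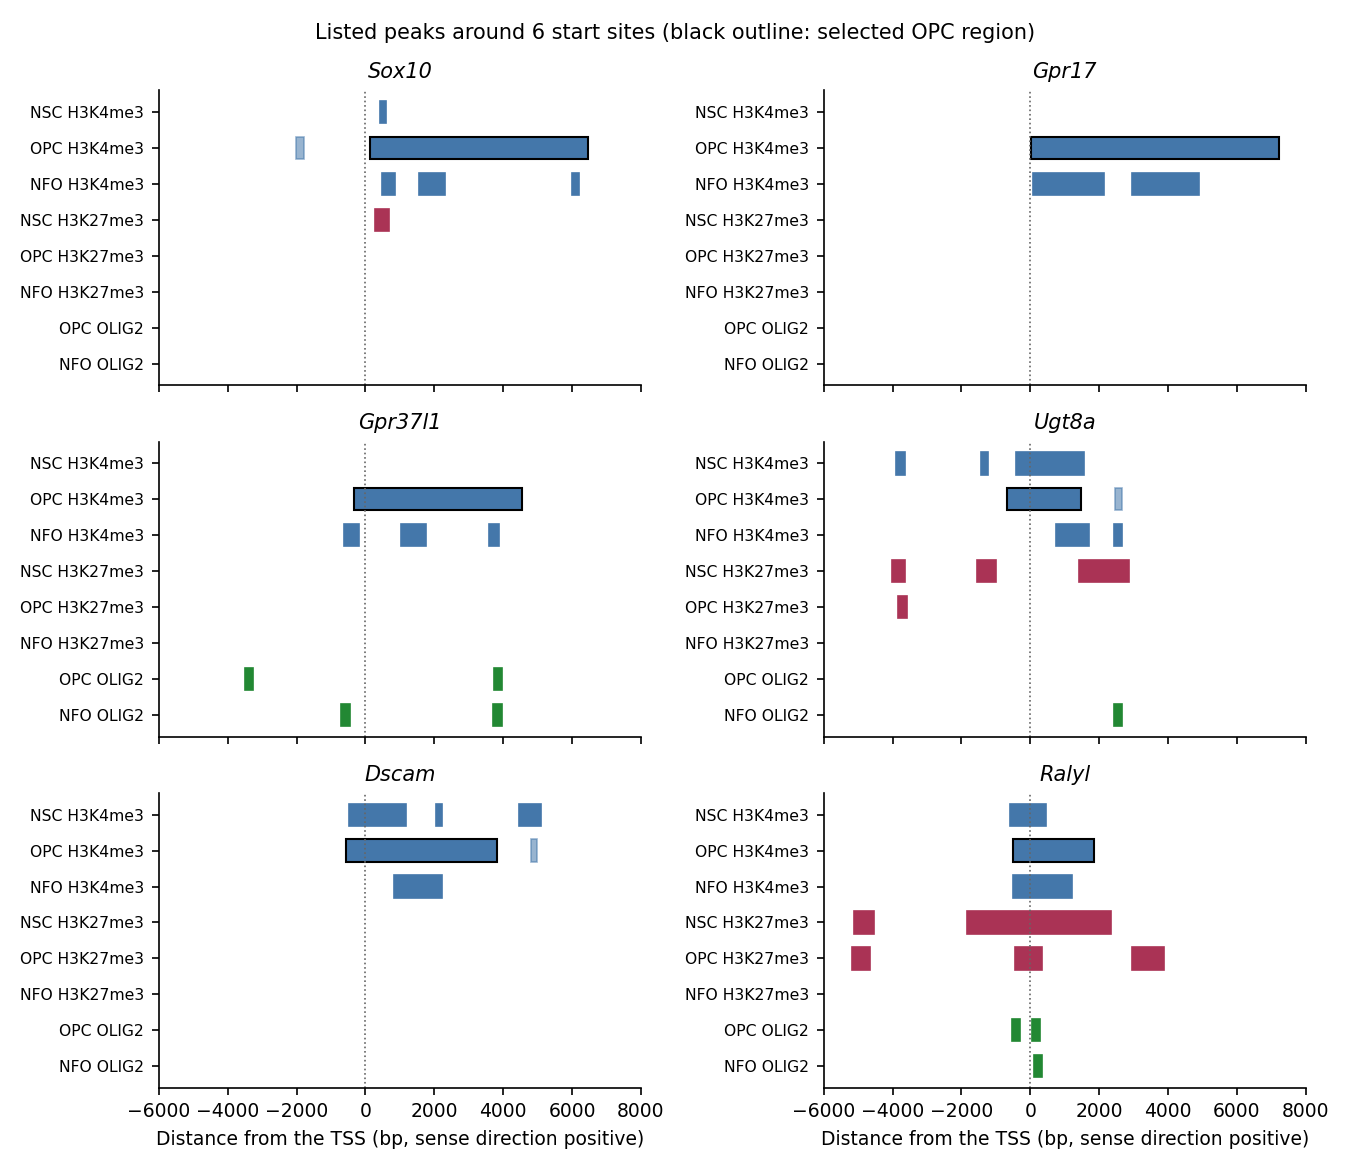
Bars are the listed H3K4me3 peaks (blue), H3K27me3 peaks (red) and OLIG2 peaks (green) of each cell type around the TSS of 6 genes, placed by distance from the TSS in bp with the direction of transcription to the right, and a black outline marks the gained wide region. At Sox10 and Gpr17 the OPC domain runs 6466 and 7232 bp downstream and NFOs keep it in pieces. Sox10, Ugt8a and Ralyl carry H3K27me3 in NSCs, and OLIG2 peaks lie inside the regions of Gpr37l1 and Ralyl.

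H3K27me3 had been present in NSCs at a larger share of the gained wide regions than of the other wide OPC peaks. An NSC H3K27me3 peak overlapped 39 of the 206 (18.9%, 13.8 to 25.0%), against 8.10% of the others and 8.91% of all wide OPC peaks. The share was higher in the gained regions in each of the 11 alternatives run on it, from 1.94% against 1.27% when 50% of the region had to be covered to 21.4% against 8.80% with 3000 bp as the width threshold. With the filter of the Methods it was 13.5% against 4.89%. The intervals were apart in 8 of the 11 and overlapped with 50% covered, with the stricter filter and when an NSC H3K4me3 peak of any width removed a region. Of the 39 regions, 36 also overlapped an NSC H3K4me3 peak, a share close to that over all gained wide regions (185 of 206). Both marks were thus listed in NSCs within the same region, though their peaks need not overlap each other. Most of the NSC H3K27me3 peaks were short, with a median of 561 bp for the widest in a region, and covered a median of 14.7% of the region. A peak of 1000 bp or more was found at 14 of the 206 (6.80%, 3.77 to 11.1%), against 3.74% of all wide OPC peaks. In the other wide OPC peaks it was 3.49% (2.81 to 4.28%), so at this width the intervals overlapped.

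In OPCs and NFOs H3K27me3 was found at fewer of these regions. OPC H3K27me3 peaks overlapped 29 (14.1%, 9.64 to 19.6%), against 9.9% of all wide OPC peaks, and NFO peaks overlapped 20 (9.71%, 6.03 to 14.6%), against 5.58%. Of the 39 regions with the NSC mark, 24 had no OPC H3K27me3 peak, 22 had none in either later cell type and 7 had one in all 3 cell types. Of all 243 wide OPC peaks with the NSC mark, 124 had none in either later cell type and 64 had one in all 3. Absence of a later H3K27me3 peak was thus not particular to the gained wide regions. A further 14 had an OPC H3K27me3 peak without an NSC one. The number of listed H3K27me3 peaks also fell along the lineage, from 36069 (NSCs) to 29417 (OPCs) and 12688 (NFOs).

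The widest NSC H3K27me3 peaks were at genes of other tissues and at neural genes. Pou4f3, a transcription factor gene of sensory hair cells, lay in an NSC peak of 10788 bp, an OPC peak of 8510 bp and an NFO peak of 8682 bp, and Tal1, a blood transcription factor gene, in peaks of 8401, 9941 and 5843 bp. Both kept H3K27me3 in all 3 cell types beside an OPC H3K4me3 peak of 2113 and 2038 bp. Ralyl, an RNA-binding protein gene, had 4182 bp in NSCs, which covered the whole region, 783 bp in OPCs and no peak in NFOs. The region 18 bp from the TSS of Dmrta1 had 2816 bp in NSCs and no later peak. Nrg3, a neuregulin gene, had 1505 bp in NSCs, none in OPCs and 2067 bp in NFOs. At Ugt8a the NSC peak of 1443 bp overlapped 2.34% of the region, at its downstream edge, and at Sox10 an NSC peak of 411 bp lay over the NSC H3K4me3 peak, with no later peak at either region.

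OLIG2 peaks were about as frequent in the gained wide regions as in other wide OPC peaks in OPCs, and their share was lower in NFOs. An OPC OLIG2 peak overlapped 21 of the 206 (10.2%, 6.42 to 15.2%), against 10.8% of all wide OPC peaks. For NFOs the count was 13 (6.31%, 3.40 to 10.5%), against 11.6%, and the interval lay just below the interval of 10.7 to 13.3% of the other wide peaks. Per length of DNA there were 40.8 OPC and 26.0 NFO OLIG2 peaks per megabase in the gained regions, and 40.1 and 44.2 in the others. The NFO share was lower than in the other wide peaks in all 10 alternatives run on it, but the intervals overlapped in 6 of them. With the Methods filter it was 6.28% (3.39 to 10.5%) against 11.3% (10.04 to 12.6%), with the stricter filter 3.76% against 7.15%, and with a width threshold of 3000 bp 15.5% against 16.2%. OLIG2 peaks of both cell types overlapped 7 regions, and those of either 27.

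The highest OPC OLIG2 fold enrichments were at the long noncoding RNA Gm39244 (26.5), Arhgap24 (17.4), Tmem100 (15.8), Ralyl (15.7) and the Nhsl1 intron (14.1). In NFOs they were at C1ql3 (20.4), Arhgap24 (18.8), an intron of Camkmt whose nearest TSS, that of Six3, lay 217723 bp away (14.3), Tmem100 (13.9) and Pou2f2 (12.04). Arhgap24 and Tmem100 were thus among the highest in both. The printed Gpr37l1 peak had a fold enrichment of 10.3 in OPCs and 7.97 in NFOs. None of the 8 OPC genes with a TSS inside a gained region had an OLIG2 peak there, and 8 regions are few to set against the 10.2% of all gained wide regions with an OPC peak. Of the regions within 1000 bp of a TSS named above, those of Sox10, Gpr17 and C1ql1 had none and that of Tmem100 had one in both cell types. At Ugt8a an NFO OLIG2 peak with a fold enrichment of 17.0 lay 2440 to 2675 bp downstream of the TSS, beyond the end of the region at 1465 bp, on a separate OPC H3K4me3 peak of 192 bp.

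The E-box CANNTG, searched in both strands at once because it is its own reverse complement, was in 12 of the 22 OPC and 8 of the 14 NFO OLIG2 peaks in these regions. Of all OLIG2 peaks it was in 70.4% in OPCs and 69.3% in NFOs, and it was in 72.3% of RefSeq promoters of 300 bases, which are longer than the peaks. The form CAGCTG, which the search for CANNTG also counts, was in 5 and 4 peaks of the regions and in 13.6% and 10.1% of all peaks. The form CAGATG or its reverse complement CATCTG, also counted within CANNTG, was in 0 of the 22 OPC and 2 of the 14 NFO peaks of the regions and in 18.9% and 17.4% of all peaks. A run of 15 or more A or T was present in 52.8% of all OPC and 49.1% of all NFO OLIG2 peaks, in 8 of the 22 and 6 of the 14 peaks in these regions, and in 1.80% of the promoters. Its part in the OLIG2 results was not tested.

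NFOs kept H3K4me3 at most of the gained wide regions, over a shorter stretch. An NFO H3K4me3 peak overlapped 175 of the 206 (85.0%, 79.3 to 89.5%), against 89.7% of all wide OPC peaks. In these 175 the widest NFO peak had a median of 767 bp and NFO peaks covered a median of 34.0% of the region. The other wide OPC peaks showed a like narrowing, with a median of 896 bp and 36.5% covered. The widest NFO peak measured a median of 29.0% of the OPC width in the gained regions and 31.9% in the others. An NFO peak of 2000 bp or more was found at 14 (6.80%, 3.77 to 11.1%), against 9.72% of all wide OPC peaks. Wide peaks were rare in the NFO list as a whole, and with the NFO threshold lowered to 946 bp, which as many NFO peaks reach as OPC peaks reach 2000 bp, the share was 35.9% against 41.3% of the others. That threshold was chosen after seeing the data.

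The NFO domain was widest at Sntg1, with 3433 bp against 5894 bp in OPCs, followed by Brinp1 (2878 bp), the ankyrin gene Ank3 (2804 bp), Cntn1 (2583 bp) and Vxn (2551 bp). None of these 5 matched its OPC width. An NFO peak as wide as the OPC region was found at 2 regions, the one in Camkmt (2338 bp in NFOs and 2291 bp in OPCs) and Nmnat2, an enzyme of NAD synthesis (2307 and 2227 bp). At Gpr17 the NFO mark was called in 2 pieces, the wider of 2066 bp, and at Sox10 in 3 pieces, the widest of 732 bp. The narrowing was large at C1ql3, from 4574 bp in OPCs to 286 bp for the widest of 3 NFO pieces.

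**Figure D4:**
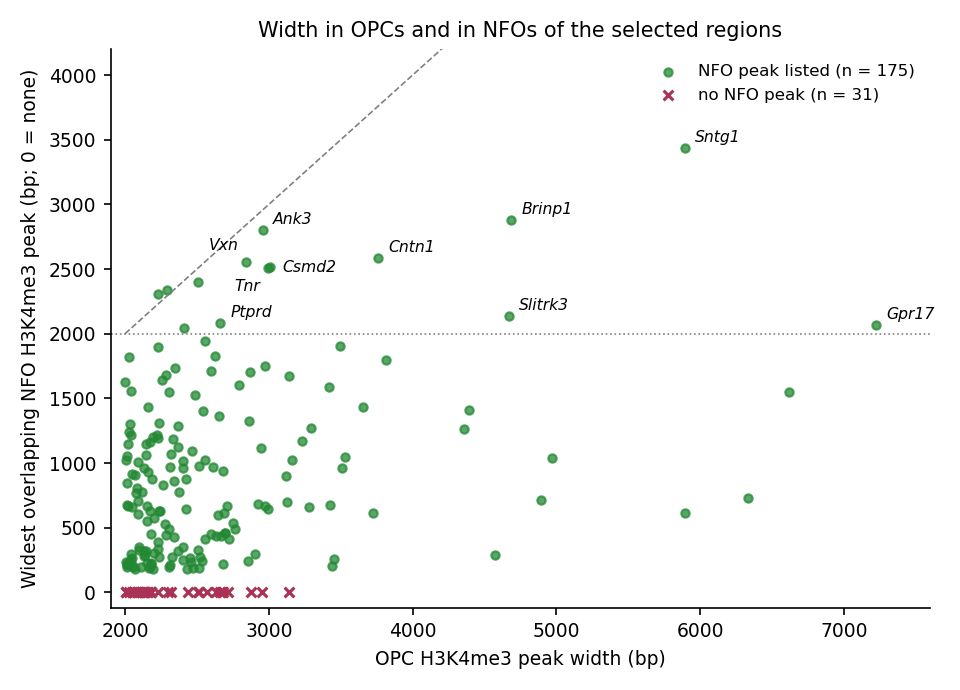
Each point is 1 of the 206 gained wide regions, with the OPC H3K4me3 peak width on the x axis and the width of the widest overlapping NFO peak on the y axis, both in bp. The dashed line marks equal widths, reached or passed by 2 regions, the dotted line marks 2000 bp, reached by 14, and crosses at 0 are the 31 regions without an NFO peak.

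The 31 regions without an NFO H3K4me3 peak were not the widest ones. Their median width was 2183 bp against 2368 bp for the 175 that kept a peak, and their median OPC fold enrichment was 5.27 against 6.47. The 5 widest were the Cspg4 and Odf3l1 region (3141 bp), the protocadherin gene Pcdh8 (2951 bp), a region 49 bp from the TSS of Tmem132b (2878 bp), a region 35 bp from that of Pnmal2 (2717 bp) and a region 68810 bp from that of Asap2 (2678 bp). Cspg5 and Rbfox3 were also among the 31. All 31 overlapped an NSC H3K4me3 peak, with a median of 1680 bp for the widest. Over all 206 gained wide regions, 185 overlapped one. The same counts gave the result above that the 21 regions without an NSC peak all had an NFO peak. The median GC content of the 31 was 57.4%, against 52.0% in the regions that kept a peak. A peak that is not listed may lie below the caller's threshold, so these counts do not show that the mark was absent.

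One region had NSC H3K27me3, OLIG2 in both cell types and NFO H3K4me3 together. Ralyl (chr3:13471146-13473495) carried these along with an OPC H3K27me3 peak, and no H3K27me3 peak was listed there in NFOs. Its NFO H3K4me3 peak was 1734 bp. Its OPC H3K4me3 peak was 2350 bp and its NSC H3K4me3 peak 1064 bp. Of the 27 regions with an OLIG2 peak in either cell type, 9 had an NSC H3K27me3 peak and 26 had an NFO H3K4me3 peak. Over all 206 gained wide regions these peaks were at 39 (18.9%) and 175 (85.0%), and 27 regions are few for a comparison.

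**Figure D5:**
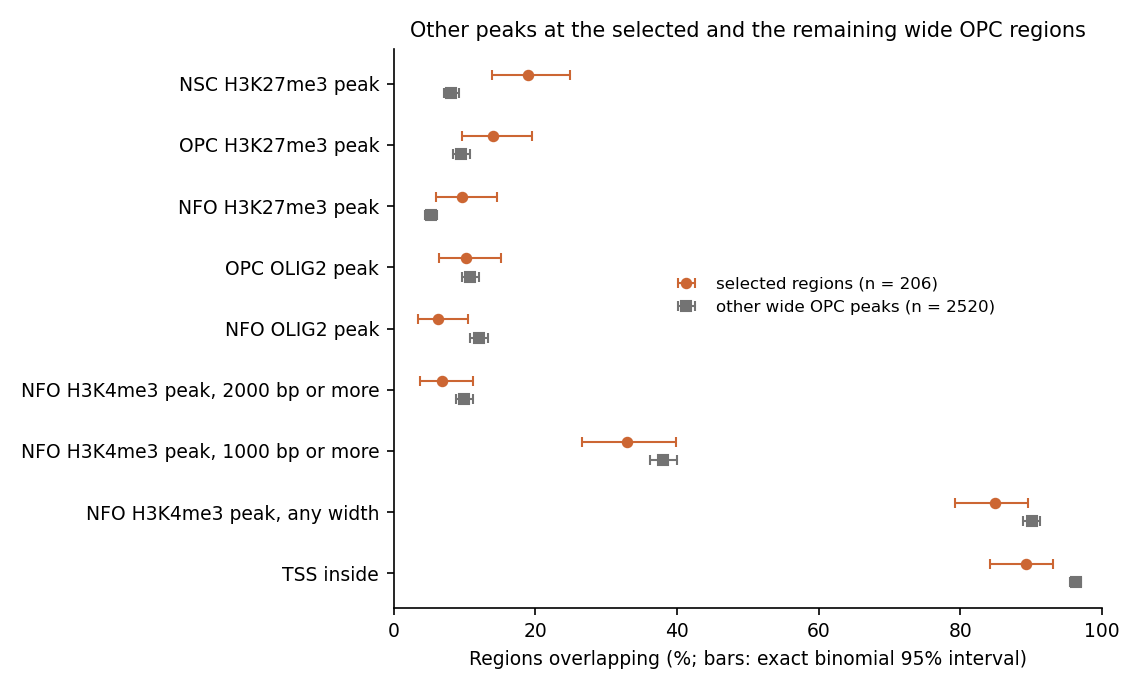
Points are the percentages of the 206 gained wide regions (orange circles) and of the 2520 other wide OPC peaks (grey squares) that overlap each kind of peak or hold a TSS, and bars are exact binomial 95% intervals. The intervals are apart for NSC H3K27me3 (18.9% against 8.10%), for NFO OLIG2 (6.31% against 11.98%) and for a TSS inside (89.3% against 96.4%), and overlap for OPC and NFO H3K27me3, OPC OLIG2 and the 3 measures of NFO H3K4me3.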

How the data were processed

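Peak lists were used for both histone marks in each of the 3 cell types and for OLIG2 in OPCs and NFOs, 8 libraries in all and 1 per condition. Per the methods, the authors aligned reads to mm10 (GRCm38) with Bowtie2, kept unique reads, called histone peaks with MACS2 in broad mode and OLIG2 peaks with SPP, and removed blacklisted regions. The submitters' processing notes name Bowtie2, MACS2, mm10 and GRCm38. Tool versions are not given in the sources used here. The deposited lists give each peak's position, its fold enrichment (a ratio to the control) as the authors' caller wrote it, and the −log10 of its p-value and FDR. The deposited lists also hold peaks that the Methods filter (FDR 0.05, fold 3.5 for histone marks and 5 for OLIG2) would remove, and all 206 regions passed it. RNA immunoprecipitation and input files were not used.

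Widths, overlaps of 1 bp or more and distances were computed with Python 3.11.15, numpy 2.4.6, scipy 1.17.1, pandas 2.3.3, pysam 0.24.0 and matplotlib 3.10.9, and were tested on simulated peaks. Genes were those of GENCODE release M21 with 8015 RefSeq long noncoding RNAs added, and promoter sequences came from RefSeq. Depth is unknown. No test between conditions was made. Differences between shares are described by whether their exact binomial intervals overlap.

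The regions and gene lists were chosen with earlier results of these data known. Named were the 10 widest regions, the 5 highest in OPC fold enrichment, the 5 widest without an NSC peak, the 5 widest without an NFO peak, the 5 widest in NFOs, the widest NSC H3K27me3 peaks, the 5 highest OLIG2 peaks of each list and genes of the lists. Other named genes were picked after their values were seen. Of the regions 5 lay on chromosome X and 1 on Y, where NFOs had 648 H3K4me3 peaks, OPCs 99 and NSCs 72. Alternatives covered the peak filter, the width thresholds, the overlap, the joining of NSC peaks and the sex chromosomes.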

Additional observations from a re-analysis of the deposited data

How the results depend on the processing

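Of 80 values recomputed under an alternative, 49 stayed within the interval of the value reported, or within 1.5 times for the count of regions, and 31 moved. The 206 regions became 59 when an NSC peak of 1000 bp or more removed a region, 21 when any NSC peak did, 1090 with the NSC threshold matched in number (3028 bp) and 103 with 3000 bp as the width threshold. The share without an NSC H3K4me3 peak (10.2%) became 15.5% with the Methods filter, 38.2% with the stricter filter, 17.6% at 1500 bp and 4.85% at 3000 bp. The share with a TSS inside (89.3%) became 83.1% with the NSC limit at 1000 bp, 95.2% with the matched NSC threshold, 96.1% for a TSS within 1000 bp, 82.8% at 1500 bp and 94.2% at 3000 bp. The share with NSC H3K27me3 (18.9%) became 13.5% with the Methods filter, 11.2% with the matched NSC threshold, 1.94% when peaks had to cover 50% of the region and 4.84% with the stricter filter. OPC OLIG2 (10.2%) became 4.30% with the stricter filter, and NFO OLIG2 (6.31%) became 15.5% at 3000 bp. The share with NFO H3K4me3 (85.0%) became 79.2% with the Methods filter, 48.4% with the stricter filter, 93.2% and 100% when an NSC peak of 1000 bp or of any width removed a region, 78.6% with a 200 bp overlap, 23.8% with 50% covered, 77.8% at 1500 bp and 94.2% at 3000 bp. The share with a wide NFO peak (6.80%) became 35.9% with the matched NFO threshold (946 bp), 14.3% when any NSC peak removed a region, 3.76% with the stricter filter and 2.91% at 3000 bp. Several of these settings change which regions are counted or lengthen them by construction, and beyond that the cause was not tested. The matched thresholds and the omission of chromosomes X and Y, which moved no value, were added after seeing the data. No paired analysis was possible because each condition had 1 library. Depth is unknown, so an unlisted peak cannot be told from one below the caller's threshold.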
